A study of Mus musculus with 1111 samples.

Results

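Expression of 7 purinergic genes was measured in single brain microglia that had been sorted on the plasma protein signal inside each cell. The genes were chosen by name and found by symbol among the 35583 genes of the deposited tables. They are P2ry12, P2ry13 and P2ry6, which encode G protein-coupled nucleotide receptors, P2rx4 and P2rx7, which encode ATP-gated channels, Gpr34, a related receptor for lysophosphatidylserine, and Entpd1, the surface enzyme CD39. The microglia came from mice aged 3 months that had received plasma proteins tagged with the fluorescent dye NHS-Atto647N 20 hours before isolation. All cells of all 3 groups came from injected mice, and by the labels the groups differ in the signal each cell carried: plasma none, plasma low or plasma high. The labels used here give no strain, sex, genotype or animal, so each group counts as 1 sample of cells and no test or p-value is given. Each cell was 1 Smart-seq2 library, a full-length method without molecular identifiers.

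Microglia are the resident macrophages of the brain. They sense ATP, ADP and UDP released by active or damaged neighbours. P2ry12 and P2ry13 bind ADP and signal through inhibitory (Gi) proteins, and P2ry12 is known for steering microglial processes towards injury. P2ry6 binds UDP, signals through Gq and is linked to phagocytosis. The P2X channels let cations in when ATP binds, and P2rx7, which needs high ATP, is known for driving inflammasome activation. Entpd1 breaks ATP and ADP down to AMP and so removes the ligands of most of these receptors.

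P2ry12 and P2ry13 lie side by side on mouse chromosome 3 (mm10), on the minus strand at 59216272 to 59262871 and 59207892 to 59210882, and both sit inside Med12l, which runs on the opposite strand. P2rx7 (plus strand, 122643911 to 122691432) and P2rx4 (plus strand, 122707544 to 122729738) are likewise neighbours, on chromosome 5. P2ry6 lies on chromosome 7 (minus strand, 100937630 to 100974649), Entpd1 on chromosome 19 (plus strand, 40612366 to 40741602) and Gpr34 on chromosome X (plus strand, 13632089 to 13640858, inside Cask on the opposite strand). The exons of P2ry12 share 9 bases with those of Med12l, and those of P2rx7 hold the miRNA gene Mir8115. The other members share 0 exonic bases with a neighbour. The use of strand in counting is not given in the sources used here, and host gene reads were few beside those of the receptors: Med12l stood at 168.1 CPM ± 39.5 in plasma none cells, 106.4 ± 41.01 in plasma low cells and 131.04 ± 45.2 in plasma high cells (SD over 3 TH numbers), where CPM is reads of a gene scaled to the same total of reads in genes for every sum.

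The 250 bases before the start site are shown for 3 genes: P2ry12 and P2ry13, the neighbours whose levels went together most closely across cells, and P2rx4, the only member past the 1.5-fold rule given below. They are RefSeq sequences of GRCm38.p6, 5′ to 3′ on the gene's strand. Capitals mark the match to a searched motif. The P2ry12 window is chr3:59262986-59263235 (minus strand), the P2ry13 window chr3:59210883-59211132 (minus strand) and the P2rx4 window chr5:122707294-122707543 (plus strand).
P2ry12: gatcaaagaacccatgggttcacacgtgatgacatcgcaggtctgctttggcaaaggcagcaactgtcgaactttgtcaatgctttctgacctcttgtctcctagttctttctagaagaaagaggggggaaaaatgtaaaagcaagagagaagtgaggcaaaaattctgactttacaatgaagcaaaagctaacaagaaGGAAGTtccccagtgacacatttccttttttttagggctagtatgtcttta
P2ry13: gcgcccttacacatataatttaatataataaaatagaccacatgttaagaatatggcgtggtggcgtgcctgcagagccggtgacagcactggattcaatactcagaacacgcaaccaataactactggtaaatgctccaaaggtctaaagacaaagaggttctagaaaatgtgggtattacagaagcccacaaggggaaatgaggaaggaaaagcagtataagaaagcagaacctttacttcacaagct
P2rx4: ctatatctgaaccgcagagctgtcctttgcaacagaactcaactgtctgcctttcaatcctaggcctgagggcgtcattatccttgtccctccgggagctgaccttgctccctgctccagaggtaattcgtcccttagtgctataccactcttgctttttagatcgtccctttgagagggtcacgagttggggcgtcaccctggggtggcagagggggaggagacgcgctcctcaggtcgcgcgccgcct

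The 5 motifs searched, on both strands, were GGAAGT (an ETS core, the family of the myeloid factor PU.1), the longer GAGGAAGT that contains it, TGANTCA (AP-1), the interferon response motif and TATAAA. P2ry12 holds GGAAGT, beginning 51 bases before the RefSeq start that its window is set on. That start lies upstream of the gene span given above, which ends at 59262871. Of 32851 promoter windows of this length in the RefSeq table, 19.7% hold GGAAGT, so a match is common. None of the 5 motifs occurs in the P2ry13 or P2rx4 window. Across all windows, 2.44% hold GAGGAAGT, 6.75% TGANTCA, 2.98% the interferon response motif and 12.4% TATAAA. Of the windows not printed, TGANTCA occurs in 1 of P2rx7, and both windows of Entpd1 have none of the motifs. A match is a description of letters and not a binding site.

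Of 1111 labelled cells, 1045 were matched to a column of counts, and 987 passed a filter of at least 50000 reads and 500 genes. Of these, 35.1% were plasma none, 35.6% plasma low and 29.4% plasma high (290 cells). Each label carries a TH number from 1 to 3 whose meaning is not stated. Summing the passing cells by group and TH number gave 9 sums of 21309816 to 49323522 reads. Errors are SD over the 3 TH numbers (n = 3), which is no spread between animals. By the well in each label, plasma none lay in columns 1 to 8, plasma low in 9 to 16 and plasma high in 17 to 24 (no labelled cell used here is in the last column for TH 1 or TH 2), so group and well position cannot be told apart. Median reads per cell were 207429, 229931 and 267143 in the none, low and high groups, median genes per cell 1708, 1994 and 1943, and the mitochondrial share 0.603%, 0.794% and 0.970%. The part of these differences in the results below was not tested, except where values from cells thinned to 50000 reads are given.

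Markers went with the label microglia. The 9 microglial markers (Tmem119, Cx3cr1 and others, no member among them) summed to 43863 to 45761 CPM in plasma none cells, 41114 to 48400 in plasma low cells and 41900 to 49272 in plasma high cells. All 4 neutrophil and all 5 lymphocyte markers were at 0, as were 5 of 7 markers of border-associated macrophages and 4 of 5 of monocytes. The platelet list matters here because platelets also carry P2ry12: it summed to 25.3 to 43.3 CPM in plasma none cells, 36.3 to 46.98 in plasma low cells and 50.6 to 60.1 in plasma high cells. Nearly all of this was Gp9, while the defining platelet gene Itga2b was at 0 in every sum. Gp9 was the only gene of this list past the filter on low values given below. It met the 1.5-fold rule upward in plasma high against none (log2 ratio 0.61 ± 0.45). The oligodendrocyte list (2 of 5 at 0) summed to 21.2 to 67.5, 20.3 to 59.7 and 56.1 to 83.4 CPM. The list of dissociation and immediate early genes (2 of 10 at 0) summed to 320.9 to 482, 336.3 to 374.2 and 284.1 to 384.3 CPM. Of the 2 genes of this list past the filter on low values given below, 1, Jun, met the 1.5-fold rule. Its log2 ratio was -0.66 ± 0.29 in plasma high against none and -0.67 ± 0.22 in plasma high against low.

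The genes spanned a wide range of abundance. Per kilobase of exon, P2ry12 stood at 3604 CPM (mean of the 9 sums), rank 9 of all genes, followed by Gpr34 at 2220 (rank 15) and P2ry13 at 965 (rank 37). P2ry6 at 120 and Entpd1 at 119.2 CPM per kilobase followed, then P2rx7 at 22.2 and P2rx4 at 21.8 (ranks 2216 and 2263). The order of P2ry6 and Entpd1, and of P2rx7 and P2rx4, is within the spread over TH numbers.

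Size rules were used in place of a test. A gene met the 2-fold or the 1.5-fold rule if its mean log2 ratio of CPM + 1 reached that size with the same sign in all 3 TH numbers, with a mean of at least 20 CPM and a read in at least 10% of cells in 1 of the 2 groups. All 7 members passed the filter on low values in every comparison. In plasma high against plasma none, 0 of 7 met the 2-fold rule, met by 5.59% of the 5652 genes tested. Of the 7, 1 gene, P2rx4, met the 1.5-fold rule, met by 16.9% of all genes in either direction and by 9.77% upward, so the count of members (14.3%) is near the background. In plasma low against plasma none, 0 of 7 met either rule, against 2.8% and 10.5% of 5573 genes. In plasma high against plasma low, 0 of 7 met either rule, against 3.51% and 11.5% of 5817 genes. The median log2 ratio of the 7 was -0.065, -0.0069 and -0.057 in these comparisons, beside 0.059, 0.050 and 0.0056 over all genes tested. The comparisons share groups and are not independent.

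**Figure D1:**
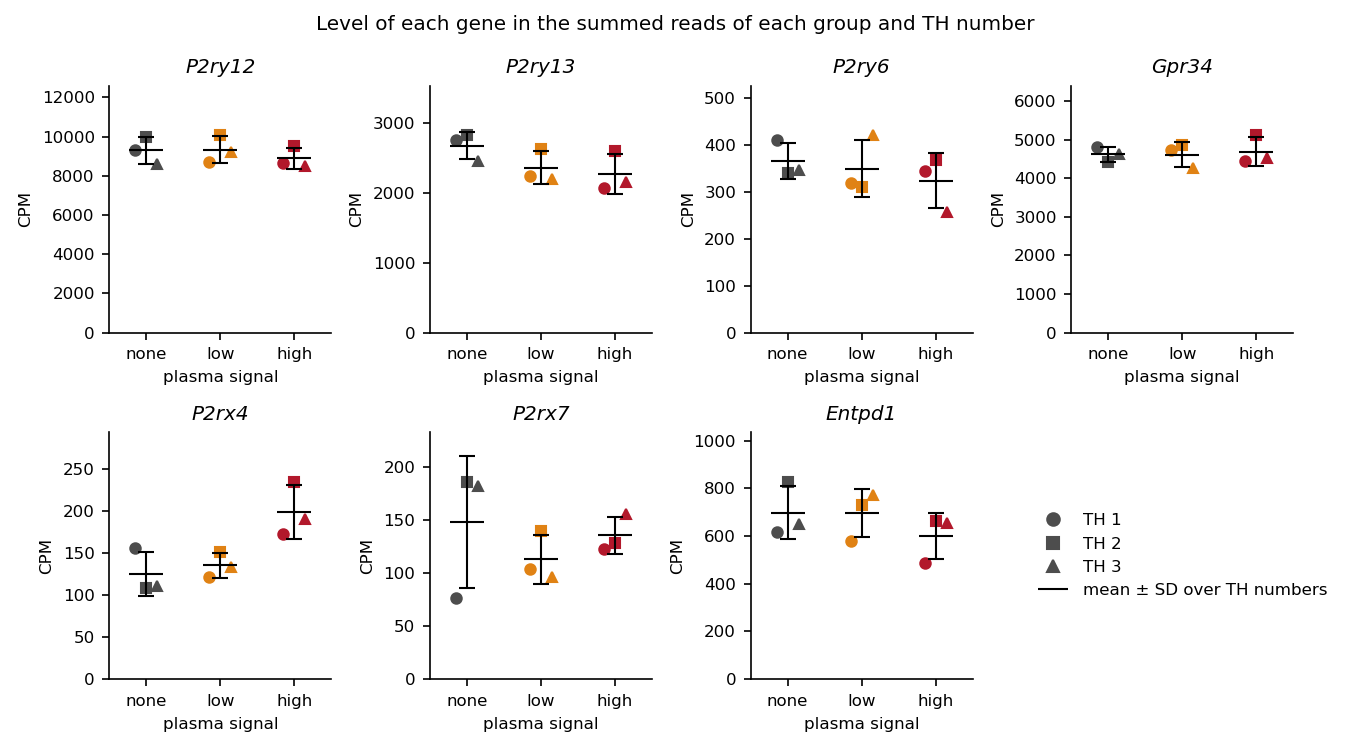
Level of each gene (CPM, linear axis from 0) in the summed reads of each group, with 1 point per TH number and bars for mean ± SD over the 3. The 3 plasma high sums of P2rx4 lie above all others, while the groups of the other 6 genes overlap or nearly touch. The share of all genes that separate as P2rx4 does is not given here.

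The ADP receptor P2ry12 was the most abundant member, followed by Gpr34 and then by the other ADP receptor, P2ry13. P2ry12 had 9320, 9988 and 8603 CPM in plasma none cells (TH 1, 2 and 3), 8689, 10068 and 9236 in plasma low cells, and 8633, 9519 and 8521 in plasma high cells. The 3 groups overlapped. Its log2 ratio was -0.065 ± 0.048 in plasma high against none, 0.0042 ± 0.10 in plasma low against none and -0.069 ± 0.054 in plasma high against low. Although the sign was the same in all 3 TH numbers for plasma high against both other groups, the size was 1.05-fold. As a mean over cells of log2(CPM + 1) the ratios were -0.28 against none and -0.29 against low, and TH 1 against low turned to 0.018.

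P2ry13 had 2753, 2827 and 2462 CPM in plasma none cells, 2250, 2636 and 2198 in plasma low cells, and 2065, 2597 and 2159 in plasma high cells. The groups overlapped across TH numbers, since TH 2 was high in every group, but within each TH number the order was none, low, high. The log2 ratio was -0.24 ± 0.15 in plasma high against none, -0.18 ± 0.097 in plasma low against none and -0.057 ± 0.058 in plasma high against low, all 3 below 0 in 3 of 3 TH numbers. The same sign in all 3 TH numbers occurred in 32.9%, 28.7% and 27.4% of all genes tested in these comparisons. As the mean over cells of log2(CPM + 1), the first ratio was -0.93, the second -0.45 and the third -0.49, and the first met the 1.5-fold rule downward. On that scale a cell without a read counts as 0, far below a typical cell. The part of such cells in these ratios was not tested. The mean over cells of CPM itself was 2678 in plasma none cells, 2321 in plasma low cells and 2116 in plasma high cells. In TH 1 the summed level of P2ry13 was lower by 0.41 on the log2 scale in plasma high against none, in TH 2 by 0.12 and in TH 3 by 0.19. Of the 9 microglial markers, 2 were also lower in plasma high against none in 3 of 3 TH numbers, Tmem119 at -0.44 ± 0.15 and Cx3cr1 at -0.18 ± 0.13, and 1 was higher, Csf1r (the CSF1 receptor) at 0.31 ± 0.084. The part of these marker differences in the result for P2ry13 was not tested.

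Between cells, the mean of P2ry13 over TH numbers was lower in plasma high than in plasma none at every percentile computed, from the 10th to the 90th. These percentiles were chosen after values were seen. The 10th percentile of P2ry13 over cells was 763, 699 and 615 CPM in plasma none cells, 362.8, 334.2 and 393 in plasma low cells and 128.6, 5.08 and 261.4 in plasma high cells. The 3 groups did not overlap and stood in the order of plasma signal. At the 25th percentile P2ry13 had 1576, 1371 and 1343 CPM in plasma none cells, 1086, 1294 and 1283 in plasma low cells and 949, 853 and 846 in plasma high cells, again without overlap. At the median, all plasma high values (1673, 2264 and 1768 CPM) were below all plasma none values (2495, 2563 and 2581), and plasma low (2046, 2504 and 2305) overlapped plasma high and plasma none. At the 75th percentile P2ry13 had 3673 ± 212.3, 3308 ± 148.1 and 3065 ± 361.9 CPM in the none, low and high groups, with overlap between none and high. At the 90th percentile the groups also overlapped, with 4767 ± 491, 4190 ± 18.6 and 4226 ± 597 CPM.

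P2ry12 had its lowest tail in plasma high. Its 10th percentile was 4742, 4897 and 3816 CPM in plasma none cells, 3385, 4593 and 4649 in plasma low cells and 3287, 2602 and 2789 in plasma high cells, where every value was below those of both other groups. Its 75th percentile was close in the 3 groups at 11590 ± 443, 12000 ± 543 and 11790 ± 597 CPM. Gpr34 had no such tail, and its 10th percentile was 1223 ± 298.6 CPM in plasma none cells, 1458 ± 288.1 in plasma low cells and 1393 ± 264.8 in plasma high cells.

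Of the 3 members read in at least 90% of cells, 2 had a 10th and a 25th percentile in plasma high below every plasma none value. Among all 98 genes read in at least 90% of cells, this held for 8.16% at the 10th and 11.2% at the 25th percentile. At the median it held for P2ry13 and Gpr34, and for 10.2% of the 98 genes. Of the 9 microglial markers, 2 did so at the 10th percentile, Tmem119 and Cx3cr1 (the fractalkine receptor). In cells thinned to 50000 reads the P2ry13 10th percentile averaged 696.7 CPM ± 117.2 in plasma none and 101.3 ± 113.5 in plasma high, with all plasma low values between those of the other groups. Plasma high cells had more reads, more genes and a larger mitochondrial share per cell (medians above) than plasma none cells. Beyond the thinning of reads, the part of these differences in the low tail was not tested.

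**Figure D2:**
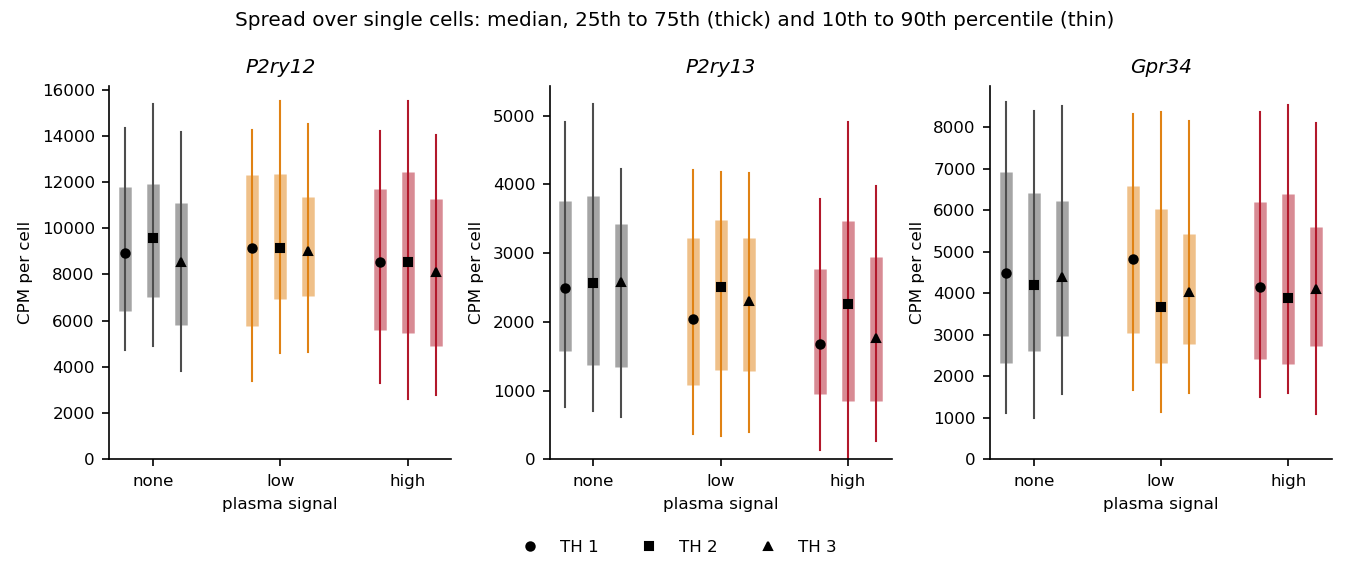
CPM per cell of P2ry12, P2ry13 and Gpr34 by group and TH number, with the median (marker), 25th to 75th percentile (thick bar) and 10th to 90th percentile (thin line). The 10th percentile of P2ry13 steps down from 615 to 763 CPM in plasma none to 5.08 to 261.4 CPM in plasma high, while the upper ends overlap.

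The share of cells with a P2ry13 read was 97.1% in plasma none cells (95% exact Clopper-Pearson interval 94.8 to 98.6), 95.4% in plasma low cells (92.7 to 97.4) and 93.1% in plasma high cells (89.6 to 95.7). In thinned cells it was 96.5%, 94.9% and 91.7%. By TH number the thinned share was 99.1%, 96.5% and 94.02% in plasma none and 93.1%, 87.5% and 94.6% in plasma high, so in TH 3 plasma high was slightly above plasma none. Intervals cover counting error between cells only.

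P2ry6, the UDP receptor, had 410, 340.5 and 347.4 CPM in plasma none cells, 318.1, 310.2 and 421 in plasma low cells, and 345.2, 368.1 and 256.9 in plasma high cells. The groups overlapped in both directions. Its log2 ratio was -0.19 ± 0.28 in plasma high against none, -0.075 ± 0.32 in plasma low against none and -0.12 ± 0.52 in plasma high against low, each smaller than its SD. P2ry6 was read in 65.6%, 68.4% and 65.9% of cells (plasma none, low and high), or 61.8%, 65.8% and 62.1% after thinning.

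The group means of Gpr34 were close. It had 4807, 4426 and 4616 CPM in plasma none cells, 4726, 4859 and 4255 in plasma low cells, and 4434, 5111 and 4525 in plasma high cells. Every group mean lay between 4614 and 4690 CPM, less than 1 SD apart, and the log2 ratio was 0.021 ± 0.17 in plasma high against none. Over cells, its median was 4491, 4207 and 4389 CPM in plasma none and 4160, 3894 and 4108 in plasma high, all below those of plasma none, while in thinned cells the medians overlapped. Gpr34 was read in 98.8%, 98.9% and 98.6% of cells.

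P2rx4, the ATP-gated channel, was the member with the largest ratio. It had 155.4, 108.5 and 110.6 CPM in plasma none cells, 121.1, 151.1 and 133.4 in plasma low cells, and 171.999, 234.4 and 189.6 in plasma high cells. Every plasma high sum was above every sum of the other groups, while plasma none and plasma low overlapped. The share of all genes that separate in this way is not given here. The log2 ratio in plasma high against none was 0.15, 1.10 and 0.77 in TH 1, 2 and 3 (0.67 ± 0.49, 1.60-fold). Against plasma low it was 0.50, 0.63 and 0.50 (0.55 ± 0.073), closer between TH numbers but just under 1.5-fold. In plasma low against none it was 0.13 ± 0.43, with both signs among TH numbers.

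The 1.5-fold call of P2rx4 in plasma high against none was not stable. Without TH 2 the log2 ratio was 0.46, below the rule. After thinning to 50000 reads it was 0.60 ± 0.82 and with the top cell left out of each sum 0.59 ± 0.62, and in both cases TH 1 turned to the other sign (-0.077 and -0.064). As a mean over cells of log2(CPM + 1) it was 0.67 ± 0.77, and TH 1 was again below 0 (-0.15). The ratio stayed above 0 in 18 of 18 alternatives, from 0.46 to 0.94. P2rx4 was read in 95, 94 and 99 cells of the none, low and high groups, which is 27.5% (22.8 to 32.5), 26.8% (22.2 to 31.7) and 34.1% (28.7 to 39.9). After thinning, the shares were 24.6%, 24.8% and 31.7%. The intervals overlap, and in TH 1 the thinned share was 32.8% in plasma none and 32.7% in plasma high.

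P2rx7 had 76.2, 186.4 and 182.4 CPM in plasma none cells, 103.6, 139.8 and 96.1 in plasma low cells, and 122.7, 128.9 and 155.9 in plasma high cells. Plasma none spread the most, with TH 1 below and TH 2 and TH 3 above every other sum. The log2 ratio was -0.025 ± 0.63 in plasma high against none, -0.30 ± 0.69 in plasma low against none and 0.27 ± 0.41 in plasma high against low, each smaller than its SD. Without TH 1 the ratio of plasma low against none was -0.66. P2rx7 had a read in 37.6%, 36.5% and 39.7% of cells. The ratios of P2rx4 and P2rx7 differed within TH 2 of plasma high against none, at 1.10 and -0.53, although the genes are neighbours.

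Entpd1, which removes extracellular ATP and ADP, had 619, 828 and 650 CPM in plasma none cells, 581, 732 and 773 in plasma low cells, and 489, 662 and 654 in plasma high cells. The groups overlapped. The log2 ratio of plasma high against low was -0.25, -0.14 and -0.24 in TH 1, 2 and 3 (-0.21 ± 0.058), lower in 3 of 3. Against plasma none it was -0.34, -0.32 and 0.0071 (-0.22 ± 0.20), so TH 3 was near 0. As a mean over cells of log2(CPM + 1), the ratio against none turned to 0.21, above 0 in 3 of 3 TH numbers. Against low it was -0.023 by that measure and -0.086 in thinned cells, and in both cases TH 1 was above 0 (0.41 and 0.16). Entpd1 was read in 74.9%, 75.8% and 76.2% of cells, so the share of cells with a read did not go down with the summed level.

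**Figure D3:**
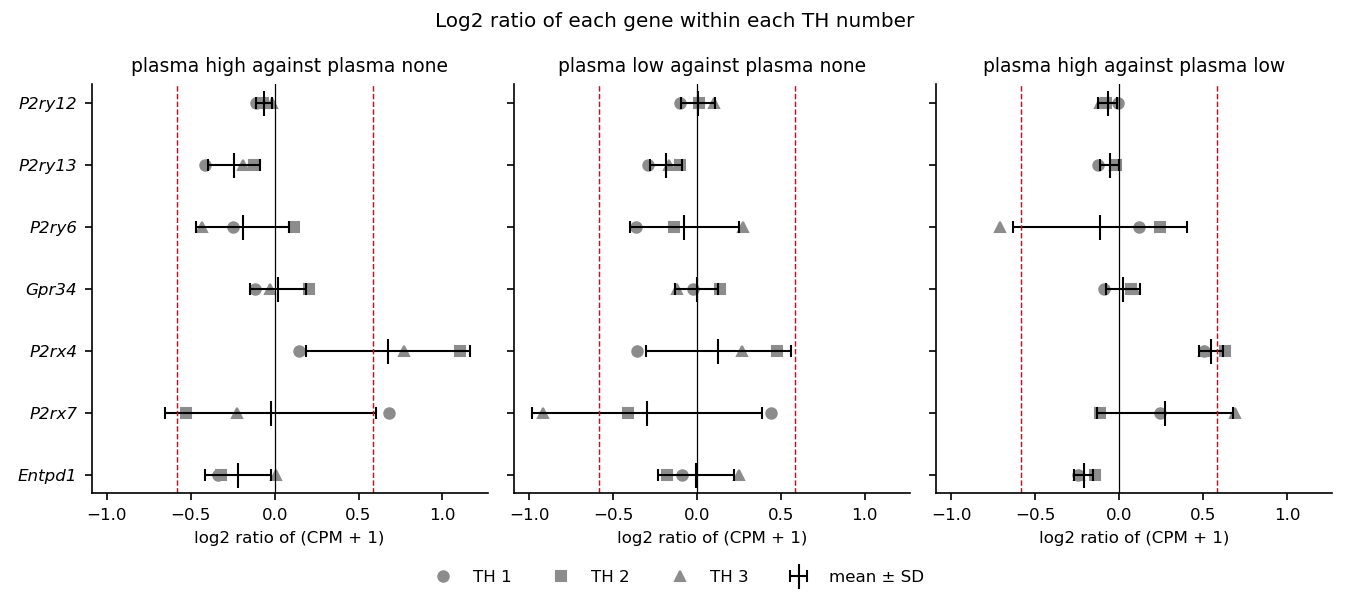
Log2 ratio of CPM + 1 for each gene in the 3 comparisons, with 1 point per TH number, black bars for mean ± SD, and dashed lines at 1.5-fold in each direction. P2rx4 in plasma high against plasma none (0.67 ± 0.49) is the only mean past a dashed line.

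**Figure D4:**
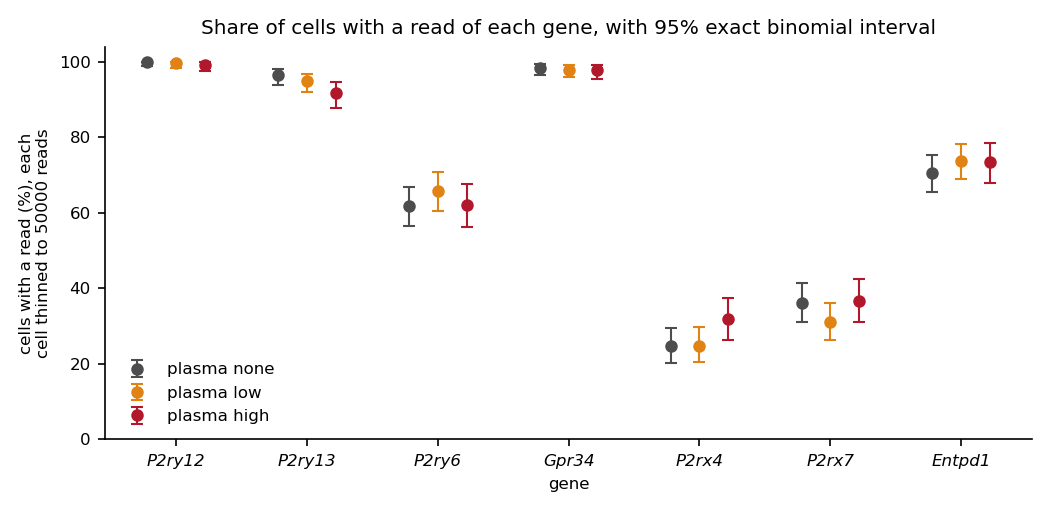
Share of cells with at least 1 read of each gene after thinning every cell to 50000 reads (%), by group, with 95% exact binomial intervals. P2ry13 goes from 96.5% in plasma none to 91.7% in plasma high, and P2rx4 from 24.6% to 31.7%.

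A cell carried most of the set at once. Of the 7 genes, thinned cells had a read of 4.88 ± 0.069 in plasma none cells, 4.88 ± 0.16 in plasma low cells and 4.93 ± 0.20 in plasma high cells on average. Cells with reads of 4 or more made up 92.8%, 92.3% and 91.03%. All 7 genes were read in 13, 8 and 16 cells of the 3 groups.

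Across the 987 cells, P2ry12 and P2ry13 went together more than any other of the 21 pairs, with Pearson's r = 0.36 of log2(CPM + 1) after each cell was centred on its group and TH number (Spearman's rho 0.28, and r = 0.35 in thinned cells). Cells share plate and depth, so this is a description. Gpr34 followed at 0.17 with each of the pair, and every pair that included a P2X channel was between -0.074 and 0.050. Among 5194 genes, the 3 most like P2ry12 were P2ry13, Tmem119 (0.26) and Selplg (0.26), which encodes the P-selectin ligand. The 3 most like P2ry13 were P2ry12, Cx3cr1 (0.30) and Tmem119 (0.26). Gpr34 was most like Ctsd, the lysosomal protease cathepsin D (0.18), then P2ry12 and P2ry13 (0.17 each), but by Spearman's rho Ctsd (0.060) was below P2ry12 (0.19) and P2ry13 (0.15). For P2ry6 they were Ivns1abp, Arglu1 and Slc40a1, the iron exporter (0.15 to 0.16), and for Entpd1 Daglb, Tmem119 and Mtch2 (0.15 to 0.16), values too weak to single out a gene. The r of a member with the number of genes per cell was largest for P2ry13 (0.25) and smallest for P2ry12 (0.070).

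**Figure D5:**
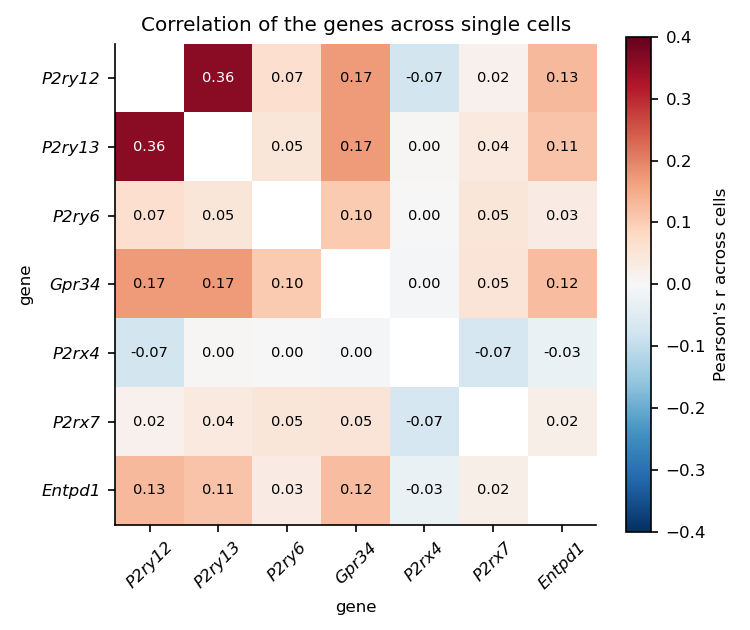
Pearson's r between the 7 genes across 987 cells, from log2(CPM + 1) centred on group and TH number. The pair of P2ry12 and P2ry13 stands at 0.36, and all pairs with P2rx4 or P2rx7 lie near 0.

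Of 67 further genes of the pathway, 29 passed the filter on low values in each comparison. In plasma high against none 4 of 29 met the 1.5-fold rule (13.8%, beside 16.9% of all genes), 3 higher and 1 lower. In plasma low against none 4 of 29 did (13.8%, beside 10.5%), and in plasma high against low 2 of 29 (6.90%, beside 11.5%). Among the calls against plasma none, Entpd7 and Plcb3 passed the filter only through the group where they were high. The median log2 ratio of the 29 was 0.089, 0.12 and 0.060, beside 0.059, 0.050 and 0.0056 over all genes.

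Among genes below the receptors, Gnai3, a Gi alpha subunit, had 29.8, 56.2 and 49.3 CPM in plasma none cells, 49.7, 81.4 and 63.7 in plasma low cells, and 119.1, 136.4 and 183.5 in plasma high cells. Every plasma high sum lay above all others, and within each TH number the order was none, low, high. How many of all genes separate in this way is not given here. The log2 ratio was 1.70 ± 0.38 in plasma high against none and 1.16 ± 0.39 in plasma high against low, both past the 2-fold rule, and 0.54 ± 0.18 in plasma low against none. The reads came from 69 plasma high cells and 44 plasma none cells, and 28.95% of those in plasma high were in 1 cell. With the top cell left out of each sum the log2 ratio was 1.41 against none and 0.77 against low. Over the 18 alternatives it ran from 0.94 to 1.92 against none and from 0.55 to 1.38 against low. The lowest values were under the 2-fold rule against none and under the 1.5-fold rule against low. Gnai2, the more abundant Gi alpha subunit, had 518 ± 60.0045, 600 ± 54.03 and 710 ± 32.95 CPM, with a log2 ratio of 0.46 ± 0.19 in plasma high against none, above 0 in 3 of 3 TH numbers but under 1.5-fold. Gnb1, a G protein beta subunit and the most abundant of this list per kilobase, had a log2 ratio of 0.23 ± 0.11.

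On the phospholipase C arm used by Gq receptors such as P2ry6, the directions were mixed. Plcb2, a phospholipase C, met the 2-fold rule in plasma high against none at 1.10 ± 0.95, but without TH 1 its log2 ratio was 0.57. Plcb3 met the 1.5-fold rule in plasma low against none (0.74 ± 0.52), and without TH 3 it was 0.50. It passed the filter on low values only through plasma low, since plasma none had 15.3 CPM and a read in 8.67% of cells, so no support is drawn from this call. Itpr2, an inositol trisphosphate receptor that releases calcium from stores, was lower: 200 ± 49.7 CPM in plasma none cells, 124.8 ± 47.4 in plasma low cells and 124.4 ± 32.1 in plasma high cells. Its log2 ratio was -0.69 ± 0.41 in plasma high against none and -0.71 ± 0.18 in plasma low against none, both past the 1.5-fold rule. As a mean over cells of log2(CPM + 1), the second turned to 0.22, and without TH 2 the first was -0.54. Over the 18 alternatives the first ran from -0.92 to -0.19.

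Other nucleotide receptors were scarce. Of the other P2Y receptors P2ry1, P2ry4 and P2ry10 were at 0, P2ry14 had at most 0.16 CPM on average, and P2ry10b and P2ry2 were the most abundant per kilobase. P2ry10b had 60.7 ± 32.1, 78.6 ± 31.1 and 79.1 ± 18.9 CPM, and P2ry2 at most 2.45 CPM. Of the other P2X channels, P2rx1 was the most abundant per kilobase at 27.8 ± 21.6, 14.04 ± 12.5 and 5.33 ± 1.52 CPM, but 44.6% of its reads in plasma none were in 1 of 9 cells, and P2rx6 was next with 1 cell. P2rx2 and P2rx5 were at 0. Adora3, an adenosine receptor, had 66.4 ± 9.58, 71.9 ± 5.47 and 76.2 ± 17.02 CPM and Adora1 at most 4.60, while Adora2a and Adora2b were at 0. Of the receptors related to P2ry12 and Gpr34, Gpr183, an oxysterol receptor, had 285.6 ± 30.2, 278.4 ± 22.4 and 321.5 ± 144.6 CPM, and Gpr82 at most 2.70. Gpr171 and Gpr174 were at 0.

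Release and breakdown of nucleotides had calls for 1 gene, Entpd7, which passed the filter on low values only through the groups where it was high. Lrrc8a, a subunit of volume-regulated anion channels, had 466 ± 107.9, 523 ± 28.5 and 432 ± 18.5 CPM, and Slc17a9, the vesicular nucleotide transporter, 17.97 ± 2.58, 21.2 ± 14.4 and 20.6 ± 5.03. Entpd7, an intracellular nucleotidase of the Entpd1 family, had 7.52, 8.18 and 6.24 CPM in plasma none cells, 31.6, 30.1 and 30.3 in plasma low cells, and 43.8, 10.5 and 35.9 in plasma high cells. It met the 2-fold rule in plasma low against none (1.94 ± 0.18) and in plasma high against none (1.69 ± 1.18). In plasma none Entpd7 was under both cuts of the filter (7.31 CPM on average, a read in 6.94% of cells), so no support is drawn from these calls. Its reads came from 24, 53 and 45 cells, and as a mean over cells of log2(CPM + 1) the ratios were 0.55 and 0.58. The nucleoside transporters Slc29a3 and Slc29a1 led the list per kilobase, with log2 ratios of -0.13 ± 0.22 and -0.28 ± 0.63 in plasma high against none. The lysophosphatidylserine hydrolase Abhd12 and the enzyme that makes this ligand of Gpr34, Abhd16a, had log2 ratios of 0.089 ± 0.25 and 0.25 ± 0.11.

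Of the 5 genes downstream of P2rx7, the inflammasome adaptor Pycard had 713 ± 126.9, 747 ± 192.9 and 508 ± 65.3 CPM in the none, low and high groups. Its log2 ratio was -0.48 ± 0.38 in plasma high against none and -0.53 ± 0.45 against low, below 0 in 3 of 3 but under 1.5-fold. Casp1 went the other way, at 0.35 ± 0.21 and 0.52 ± 0.50. Il18, the cytokine cut by caspase-1, met the 1.5-fold rule in plasma low against none (0.85 ± 0.43, 28.7 ± 9.23 to 51.2 ± 4.10 CPM) and the 2-fold rule downward in plasma high against low (-1.05 ± 0.94). Without TH 1 the second ratio was -0.54. Il1b had at most 3.67 CPM on average in any group.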

How the data were processed

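Single microglia were profiled by Smart-seq2. The authors deposited 1 table of raw counts per TH number, and 1 column of TH 3 held estimated counts, since 2 of its deposited values were not whole. All values were rounded to whole numbers, which changed only these. Per the submitters' processing notes, bcl2fastq, Trim Galore, STAR 2.5.3a and Seurat were used with build mm10. How reads were counted, and whether strand was used, is not given in the sources used here. Per the file headers, TH 2 and TH 3 were reduced to top hits, and TH 1 carries no such note. All value columns matched a labelled cell, and the other 66 labelled cells were not analysed here. Columns were tied to labels through well and TH number. The tables' 35583 genes were compared with GENCODE M21 (GRCm38): 35546 IDs were found, 35397 with the same coordinates.

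Cells with at least 50000 reads and 500 genes were summed by group and TH number, scaled to CPM with TMM factors (edgeR 4.0.16 in R 4.3.3), and compared as log2 ratios of CPM + 1 (pseudocount 1) within TH number. A fold change on this scale understates that of low genes. No test was run, because no label names an animal. Alternatives included library size, DESeq2 1.42.0 size factors, pseudocounts of 0.1 and 5, other cell filters, thinning, leaving out wells, the top cell or a TH number, and model coefficients with and without TH number as a replicate block. The size rule was also run on simulated data, whose outcome is not given here and lends the results no support. Named genes were all members, every pathway gene meeting a rule, the 2 most abundant per exon length of each list, and the 3 genes most like each member read in at least 50% of cells, without predicted genes. Members and lists were chosen with earlier results of these data known. Cells were sorted singly, so no doublet caller was run. The number of decimals printed varies between values and is no measure of their precision, which the SD over TH numbers gives.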

Additional observations from a re-analysis of the deposited data

How the results depend on the processing

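Ratios were taken within TH number, which was treated as a block, and no animal is named, so no alternative gives a test. Deviations from the group mean correlated across genes at 0.031 to 0.090 between sums of the same TH number and at -0.057 to -0.0041 between sums of different numbers. Such deviations add to 0 within a group, so the second range is not separate evidence from the first. The median log2 ratio of the 7 genes in plasma high against none was -0.072 from edgeR with the replicate block, -0.13 with no replicate block, -0.11 with reads pooled over TH numbers and -0.16 to -0.068 with a TH number left out. In plasma high against low it was -0.053 with the block, -0.094 by library size, -0.086 with thinned cells, -0.080 without the outermost wells, -0.071 without the top cell, -0.030 as a mean over cells of log2(CPM + 1), -0.029 with pooled reads, and -0.063 to -0.0097 with a TH number left out. The 1.5-fold count in plasma high against none was 0 with thinned cells and 0 without the top cell, where TH 1 of P2rx4 changed sign, and 0 to 1 with a TH number left out. As a mean over cells of log2(CPM + 1), the called gene changed. P2rx4 lost the call, with TH 1 at -0.15, and P2ry13 met the 1.5-fold rule downward at -0.93. In plasma low against none the 1.5-fold count was 0 to 1 with a TH number left out, where P2rx7 reached -0.66 without TH 1, and in plasma high against low 1 as a mean over cells, where P2rx4 reached 0.64. Itpr2 turned from -0.71 to 0.22 in plasma low against none as a mean over cells. No member met the 2-fold rule under any alternative that was run. P2ry13 stayed below 0 in all 18 alternatives of each comparison listed under the methods. As the CPM of the median cell, chosen after the data were seen, its log2 ratio in plasma high against none was -0.43. The cause of these shifts was not tested. Few cells with a read (29.2% for P2rx4, 37.8% for P2rx7) limit the precision of the P2X channels.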

Other observations

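The genes whose low tail in plasma high lay below plasma none in all TH numbers were few enough to name, after their values were seen. Of the 98 genes read in at least 90% of cells, 8 had a 10th percentile over cells in plasma high below every plasma none value. They were P2ry12, P2ry13, Tmem119, Cx3cr1, Selplg, Arglu1, Rsrp1 and Mettl23. Tmem119 had a 10th percentile of 2273, 2126 and 1943 CPM in plasma none (TH 1, 2 and 3), 1577, 1791 and 1586 in plasma low, and 1571, 1022 and 1357 in plasma high. Cx3cr1 had 3389, 3898 and 3814 CPM in plasma none and 3096, 2780 and 2817 in plasma high.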
